A study of Rattus norvegicus with 2 samples.

Results

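Levels of 8 transcription factors tied to the goblet lineage, Atoh1, Spdef, Gfi1, Foxa3, Creb3l1, Creb3l4, Xbp1 and Bhlha15, were read across the epithelial cell types of rat jejunum. The genes were taken by their symbols, 8 of the 32883 genes in the deposited count tables, and all 8 symbols were present. The tables hold droplet-based 3′ single-cell RNA counts from the proximal jejunum of 2 male Sprague Dawley rats, aged 6 to 8 weeks, weighing 180 to 200 g and fasted overnight, with 1 library per rat. The labels name no transgene or treatment beyond the fast, and every comparison is between cell types of the same animals, with the rat as the replicate (n = 2). A unique molecular identifier (UMI) tags every transcript, so amplified copies count once. Levels are UMIs of the gene per 1000000 UMIs summed over all cells of a class in 1 rat (CPM).

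Goblet cells secrete the mucus that covers the intestinal epithelium, and Paneth cells secrete antimicrobial peptides at the crypt base. Both arise from crypt progenitors that escape Notch signaling and turn on Atoh1, a basic helix-loop-helix (bHLH) factor that commits cells to the secretory lineage. Gfi1, a zinc finger repressor, acts after Atoh1 and keeps goblet and Paneth precursors from becoming enteroendocrine cells. Spdef, an ETS family factor, and Foxa3, a forkhead factor, promote goblet cell maturation and mucus genes. Creb3l1 and Creb3l4 are membrane-anchored bZIP factors that are released by proteolysis and drive genes of the secretory pathway. Xbp1 becomes active when Ire1 splices its transcript under load of the endoplasmic reticulum (ER), and Bhlha15, also called Mist1, enlarges the secretory apparatus of exocrine cells. Counts of UMIs per gene do not separate spliced from unspliced Xbp1, nor cleaved from anchored Creb3l1 or Creb3l4.

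All 8 genes had a promoter window in the RefSeq table of the GRCr8 assembly, from 250 bases before the transcription start to 50 bases after it. The counts were made on an older assembly, so the windows give the genes' place in the genome and not the counted reads. The start sites of Atoh1 (ENSRNOG00000006383, chr4:95241683-95241982, plus strand), Gfi1 (ENSRNOG00000002042, chr14:2187099-2187398, plus strand), Foxa3 (ENSRNOG00000014256, chr1:87799436-87799735, minus strand) and Bhlha15 (ENSRNOG00000025164, chr12:15538250-15538549, minus strand) held none of the 7 motifs searched. The other 4 windows are shown because each held at least 1 of these motifs, and the capitals mark the matches. They are Xbp1 (ENSRNOG00000010298, chr14:84604373-84604672, plus strand), Creb3l1 (ENSRNOG00000005413, chr3:98449055-98449354, minus strand), Creb3l4 (ENSRNOG00000023493, chr2:177993436-177993735, minus strand) and Spdef (ENSRNOG00000000491, chr20:5787636-5787935, minus strand), each written 5′ to 3′ on the strand of the gene.
Xbp1: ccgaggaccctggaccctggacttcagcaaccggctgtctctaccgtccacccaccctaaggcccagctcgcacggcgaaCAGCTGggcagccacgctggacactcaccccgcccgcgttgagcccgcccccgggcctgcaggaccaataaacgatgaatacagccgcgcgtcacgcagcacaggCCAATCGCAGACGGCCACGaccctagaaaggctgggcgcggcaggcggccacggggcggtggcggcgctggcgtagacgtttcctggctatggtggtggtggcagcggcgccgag
Creb3l1: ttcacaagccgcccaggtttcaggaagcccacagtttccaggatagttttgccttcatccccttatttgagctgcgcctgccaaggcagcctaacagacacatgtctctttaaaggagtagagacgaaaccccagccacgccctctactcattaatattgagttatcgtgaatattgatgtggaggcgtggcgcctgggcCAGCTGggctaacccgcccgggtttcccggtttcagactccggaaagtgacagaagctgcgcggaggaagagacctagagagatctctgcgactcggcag
Creb3l4: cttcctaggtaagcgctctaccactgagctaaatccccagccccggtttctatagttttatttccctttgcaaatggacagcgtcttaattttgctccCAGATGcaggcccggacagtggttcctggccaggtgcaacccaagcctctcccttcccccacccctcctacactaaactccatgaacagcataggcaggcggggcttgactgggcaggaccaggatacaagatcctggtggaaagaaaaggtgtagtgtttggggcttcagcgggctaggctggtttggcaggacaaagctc
Spdef: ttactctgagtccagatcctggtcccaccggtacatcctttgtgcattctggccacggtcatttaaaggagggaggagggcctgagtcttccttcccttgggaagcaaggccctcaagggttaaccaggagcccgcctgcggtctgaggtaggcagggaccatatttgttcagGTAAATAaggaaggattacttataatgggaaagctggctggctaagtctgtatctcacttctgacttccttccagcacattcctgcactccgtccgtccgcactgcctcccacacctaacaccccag

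Each motif was searched on both strands, and no matches overlapped. CAGCTG, an E-box that bHLH factors can bind, was in the windows of Creb3l1 (bases -50 to -45 from the start) and Xbp1 (-170 to -165), and in 15.1% of all 33469 promoter windows. A second E-box, CAGATG, was in the Creb3l4 window (-152 to -147) and in 16.6% of all windows. The ER stress response element, spelled CCAAT, then any 9 bases, then CCACG, was in the Xbp1 window (-65 to -47) and in 22 of all windows (0.0657%). The forkhead motif TATTTAC was on the opposite strand of the Spdef window (-77 to -71) and in 3.51% of all windows. The forkhead motif TGTTTAC (3.78% of all windows), the unfolded protein response element core ACGTGG (7.84%) and the ETS motif CCGGAAG (8.75%) were in none of the 8. A match describes letters in the window and is not shown to be a bound site.

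Rat 1 gave 12033 barcodes with 99986348 UMIs and rat 2 gave 8252 barcodes with 66469907 UMIs. Of these, 6035 and 2303 cells had over 5000 UMIs and at most 40% mitochondrial UMIs, with median mitochondrial shares of 13.04% and 19.0%. The libraries shared 28 barcodes, 4 of them among retained cells. The goblet lineage held 366 cells of rat 1 and 153 of rat 2. It was split into cycling goblet progenitors (134 and 13 cells, at least 5 UMIs of 14 cell cycle genes per 5000 UMIs), Paneth-transcript cells (152 and 27 non-cycling cells with at least 10 UMIs of 9 Paneth genes) and the remaining non-cycling goblet cells (80 and 113 cells). The other classes were enteroendocrine-like (EEC-like; 21 and 11 cells), tuft-like (17 and 127), CFTR high expresser-like (CHE-like; 7 and 75), stem-like (1184 and 34) and enterocyte-like cells (3506 and 1100). An epithelial filter, over 10 UMIs of epithelial genes, was set on stem-like cells and left out 1 cell of rat 1 and 90 of rat 2. Another 543 and 47 retained cells had no class by their markers and entered no comparison. None of the 8 factors was among the genes used for clustering, but the classes were made from the same cells, and p-values below measure only the spread between the 2 rats.

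Clusters were named goblet by their level of goblet markers, so a high share of these markers follows from the naming and does not test the label. The 7 goblet markers in the tables (Muc2 is not listed by that symbol) gave 21.3% and 36.7% of all UMIs in non-cycling goblet cells, 9.24% and 12.95% in Paneth-transcript cells and 3.88% and 6.61% in cycling progenitors, in rat 1 and rat 2, against 0.0480% and 0.0314% in enterocyte-like cells. The Paneth label was borne out only in part. Itln1, an intelectin, gave 57.0% and 53.2% of the Paneth-marker UMIs of Paneth-transcript cells, while the defensin Defa24 had a UMI in only 19.1% and 3.70% of these cells after thinning. Non-cycling goblet cells had a Defa24 UMI in 16.25% and 0.885% of cells, so in rat 1 this share hardly differed. Of the Defa24 UMIs of Paneth-transcript cells, 5957 of 6036 came from 2 cells in rat 1. In rat 2 all 980 came from 1 cell. The class is therefore marked mainly by Itln1 and not by defensins. Of the cycling progenitors, 106 of 134 and 11 of 13 also passed the Paneth threshold. The thresholds cut continuous values, as 48 and 4 cells had 3 to 6 cell cycle UMIs, and 31 and 5 non-cycling cells had 7 to 12 Paneth UMIs. Non-cycling goblet cells came mostly from a cluster led by Zg16 and Fcgbp, which gave 56.2% of them in rat 1 and 90.3% in rat 2.

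Atoh1, the factor of secretory commitment, stood at 131 CPM in cycling progenitors, 298 CPM in non-cycling goblet cells and 252 CPM in Paneth-transcript cells of rat 1. In rat 2 the levels were 380, 315 and 489 CPM. Enterocyte-like cells were at 1.36 and 0.385 CPM, and stem-like cells at 4.89 and 31.6 CPM. The goblet classes were thus above all other classes in both rats, with no overlap of their counting intervals with the next class below. Among EEC-like, tuft-like and CHE-like cells, Atoh1 had 1 UMI in rat 1 and 2 UMIs in rat 2. Within the lineage the order differed between the rats, since cycling progenitors were lowest in rat 1 and non-cycling goblet cells were lowest in rat 2, with the intervals of cycling and non-cycling cells of rat 2 overlapping. That order depended on the scale. Counted per 1000000 UMIs outside the goblet markers, which make up much of the RNA of non-cycling goblet cells, Atoh1 was lowest in cycling progenitors of both rats, at 136, 378 and 278 CPM in cycling, non-cycling and Paneth-transcript cells of rat 1 and 406, 498 and 562 CPM in those of rat 2. No counting intervals were taken for the classes on this scale, so the order in rat 2 was not shown beyond counting error.

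Gfi1, the repressor downstream of Atoh1, was sparse, with 36 UMIs in all goblet-lineage cells of rat 1 and 20 in those of rat 2. Its levels were 4.63 and 12.2 CPM in cycling progenitors, 4.62 and 3.24 CPM in non-cycling goblet cells and 8.06 and 23.4 CPM in Paneth-transcript cells. The Paneth-transcript cells were highest in both rats, but their counting intervals overlapped those of cycling progenitors. Enterocyte-like cells held 2 UMIs of Gfi1 in each rat.

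Spdef, which promotes goblet maturation, was at 122 and 279 CPM in cycling progenitors, 211 and 352 CPM in non-cycling goblet cells and 223 and 461 CPM in Paneth-transcript cells. Foxa3 was at 93.7 and 300.0 CPM, 156 and 232 CPM, and 147 and 383 CPM in the same classes. Both genes were near the floor in enterocyte-like cells, at 1.53 and 0.770 CPM for Spdef and 1.15 and 0.385 CPM for Foxa3. In rat 1 cycling progenitors were below the other goblet classes beyond the counting intervals for both genes, and in rat 2 Paneth-transcript cells were highest for both on this scale. Outside the goblet markers they were not highest for Spdef in rat 2, at 530 CPM against 555 CPM in non-cycling goblet cells. They differed in EEC-like cells, where Spdef had 0 UMIs in either rat (the limit that a count of 0 allows, 3 counts, is 16.7 CPM in rat 1 and 19.2 CPM in rat 2) while Foxa3 had 8 and 7 UMIs, or 44.4 and 44.9 CPM. The Foxa3 level of EEC-like cells was 38.7 times that of enterocyte-like cells in rat 1 (exact 95% counting interval 15.9 to 81.8) and 117 times in rat 2 (37.7 to 339). In rat 1 the Foxa3 interval of EEC-like cells (19.2 to 87.6 CPM) overlapped that of cycling progenitors (84.0 to 104 CPM). In rat 2 it lay below those of all goblet classes. Goblet markers gave 0.684% and 1.46% of the UMIs of EEC-like cells, and their part in these Foxa3 counts was not tested.

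Creb3l1 and Creb3l4, the membrane-anchored secretory pathway factors, had different patterns within the lineage. Creb3l1 was at 101 and 432 CPM in cycling progenitors, 129 and 80.9 CPM in non-cycling goblet cells and 136 and 502 CPM in Paneth-transcript cells. In rat 2 the non-cycling goblet cells had 0.188 times the Creb3l1 level of cycling progenitors (interval 0.146 to 0.240), while in rat 1 the ratio was 1.28 (1.03 to 1.59). The non-cycling goblet cells of rat 2 were no higher in Creb3l1 than its EEC-like cells, at 96.2 CPM, and the intervals overlapped. EEC-like cells of rat 1 were at 44.4 CPM, and CHE-like cells of rat 2 at 25.9 CPM.

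Creb3l4 was at 87.7 and 233 CPM in cycling progenitors, 163 and 210 CPM in non-cycling goblet cells and 172 and 372 CPM in Paneth-transcript cells. Outside the lineage it was at 2.49 and 0.809 CPM in enterocyte-like cells and had 1 UMI in EEC-like cells of each rat. In tuft-like cells the level was 5.54 CPM for rat 1, from 1 UMI, and 25.2 CPM for rat 2. The related factors therefore shared the goblet classes and differed in EEC-like cells, where Creb3l1 but not Creb3l4 had more than 1 UMI.

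Xbp1, the effector of the Ire1 branch of the unfolded protein response, was the only member above 5 CPM in enterocyte-like cells of both rats, at 20.3 and 12.4 CPM. Its goblet levels were 27.8 and 52.0 CPM in cycling progenitors, 36.9 and 42.7 CPM in non-cycling goblet cells and 54.8 and 61.6 CPM in Paneth-transcript cells. Stem-like cells were at 16.4 and 23.7 CPM, and EEC-like cells at 11.1 and 57.7 CPM. Paneth-transcript cells were the highest class in both rats, and their interval overlapped that of the next class in both. That next class was the non-cycling goblet cells in rat 1 and the EEC-like cells in rat 2.

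Bhlha15, the exocrine scaling factor, had 15 UMIs in the goblet lineage of rat 1 and 14 in that of rat 2, or 2.34 and 5.98 CPM. Its highest class was the non-cycling goblet cells in rat 1, at 4.62 CPM, and the Paneth-transcript cells in rat 2, at 12.8 CPM. Cycling progenitors of rat 2 had 0 UMIs, which allows up to 9.18 CPM. All goblet classes had overlapping intervals in both rats, so no order among them could be read at this depth.

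**Figure D1:**
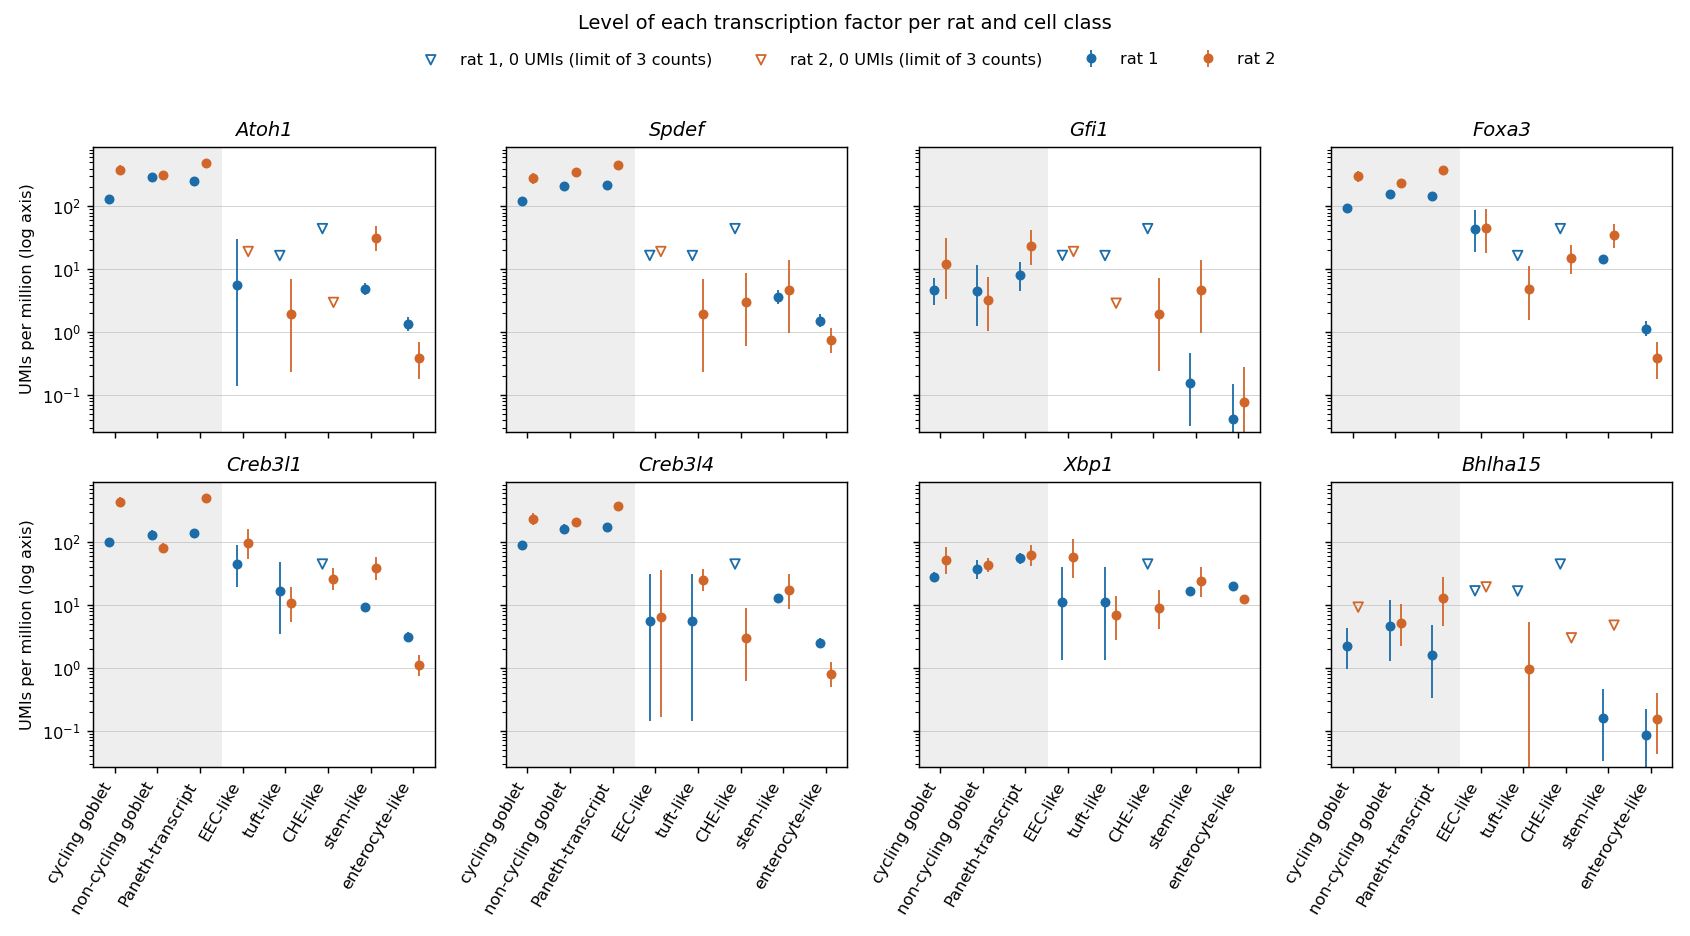
Level of each of the 8 factors in CPM, on a log axis, in the 8 cell classes, with 1 point per rat, bars for the exact 95% counting interval and open triangles at the limit of 3 counts where a class had 0 UMIs. All factors but Xbp1 and Bhlha15 stand far above enterocyte-like cells in the 3 goblet classes, and Xbp1 in enterocyte-like cells has 20.3 CPM (rat 1) and 12.4 CPM (rat 2).

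The levels of the members in enterocyte-like cells were set beside those of goblet markers in the same cells. Free RNA, doublets and low expression were not told apart, and the source of these counts was not tested. As a percentage of the goblet-lineage level, the 7 goblet markers in enterocyte-like cells were at 0.270% to 1.14% in rat 1 and 0.0384% to 0.148% in rat 2. Atoh1 (0.721% and 0.107%) and Foxa3 (0.978% and 0.142%) lay inside both ranges, and Spdef (0.937% and 0.212%) inside that of rat 1. Creb3l1 (2.71% and 0.521%) and Creb3l4 (2.03% and 0.329%) lay above both. Gfi1 (0.757% and 0.902%) lay inside the range of rat 1 and above that of rat 2, on 2 enterocyte UMIs in each, and Bhlha15 (3.63% and 2.58%) lay above both, on 4 UMIs in each. Xbp1 stood apart at 54.9% and 25.8%.

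The first comparison asked which factors mark the goblet lineage against absorptive cells. Of the 7 members that passed the low-count filter, 6 were higher in the goblet lineage than in enterocyte-like cells and 0 lower by the quasi-likelihood test of edgeR, adjusted after Benjamini-Hochberg over 9054 genes, where 16.5% of all genes tested were called higher and 16.6% lower (33.1% in either direction). The fitted log2 fold changes, taken from the mean of the 3 goblet classes, were 7.89 ± 1.00 (SE) for Atoh1 (adjusted p = 6.88e-05), 7.33 ± 0.76 for Spdef (adjusted p = 1.69e-05) and 7.57 ± 0.94 for Foxa3 (adjusted p = 4.28e-05). Creb3l4 rose by 6.39 ± 0.77 (adjusted p = 3.56e-05, edgeR quasi-likelihood) and Creb3l1 by 6.03 ± 0.96 (adjusted p = 0.000309). All of these had the same direction in both rats, and the median over the 7 members was 6.39, against 0.04 over all genes.

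Gfi1 was called at 6.11 ± 1.14 (adjusted p = 0.00156, edgeR quasi-likelihood), but it rests on 2 enterocyte UMIs per rat, so the ratio of summed levels is the plainer figure, at 132 in rat 1 (interval 34.0 to 1133) and 111 in rat 2 (26.9 to 979). Xbp1 did not pass, with a log2 fold change of 0.95 ± 0.48 (adjusted p = 0.151, edgeR quasi-likelihood), 0.41 in rat 1 and 1.48 in rat 2. The ratio of its summed levels was above 1 in each rat, at 1.82 in rat 1 (1.57 to 2.10) and 3.87 in rat 2 (3.09 to 4.81). Bhlha15 failed the low-count filter. Its summed level in the lineage was 27.5 times that of enterocyte-like cells in rat 1 (8.77 to 114) and 38.8 times in rat 2 (12.2 to 162), on 4 enterocyte UMIs in each rat.

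The second comparison set the goblet lineage against the other secretory cells, the mean of the EEC-like, tuft-like and CHE-like classes. Again 6 of 7 members tested were higher and 0 lower, where 6.39% of all genes tested were called higher and 2.77% lower (9.17% in either direction) by edgeR's quasi-likelihood test. Atoh1 was higher by 9.38 ± 0.91 on the log2 scale (adjusted p = 9.23e-05) and Spdef by 9.16 ± 0.72 (adjusted p = 1.86e-05), both close to their counting floor in the other classes. The ratio of summed Atoh1 levels was 80.9 in rat 1 (14.5 to 3197) and 394 in rat 2 (109 to 3257). Spdef had 0 UMIs in the other secretory cells of rat 1, and its level in the goblet lineage of that rat was at least 23.3-fold higher against a floor of 3 counts. In rat 2 the Spdef ratio was 159 (68.0 to 492).

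The remaining factors separated these cells less widely. Creb3l4 was higher by 4.91 ± 0.53 (adjusted p = 0.000129, edgeR quasi-likelihood), Foxa3 by 4.09 ± 0.54 (adjusted p = 0.000642), Creb3l1 by 2.97 ± 0.55 (adjusted p = 0.00541) and Xbp1 by 1.86 ± 0.42 (adjusted p = 0.0161). Xbp1 thus passed against other secretory cells and not against enterocyte-like cells, and the difference between these folds was not tested. The other secretory classes were not alike in Xbp1. In rat 2, EEC-like cells at 57.7 CPM were above cycling (52.0 CPM) and non-cycling goblet cells (42.7 CPM), with overlapping intervals. Tuft-like and CHE-like cells of that rat were at 6.78 and 8.97 CPM. EEC-like cells of rat 1 were at 11.1 CPM, from 2 UMIs. Gfi1 stood at 6.07 ± 1.92 and did not pass (adjusted p = 0.0678, edgeR quasi-likelihood). With the rat as a replicate block in the model, Gfi1 passed (adjusted p = 0.0121) and all 7 members tested were higher.

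**Figure D2:**
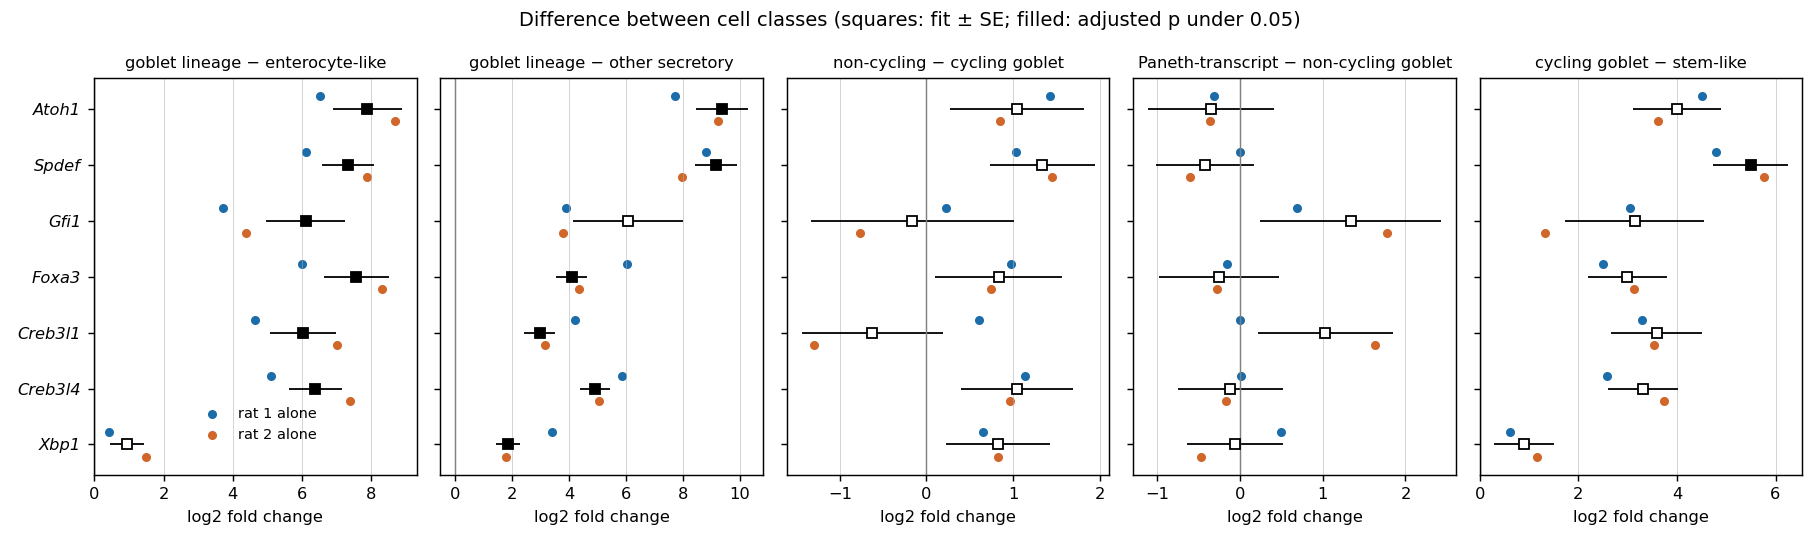
Fitted log2 fold change of the members tested in each of the 5 comparisons, as squares with bars of 1 SE, filled where the adjusted p was under 0.05, and circles for each rat on its own, which a prior count of 2 draws toward 0 at low counts. Against enterocyte-like cells Atoh1 was at 7.89 and Xbp1 at 0.95, while no square is filled in the comparisons inside the goblet lineage.

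The third comparison asked which factors are already high in dividing cells of the lineage. Between cycling goblet progenitors and stem-like cells, which also cycle, 1 of 7 members tested was higher, where 0.11% of all genes tested (10 genes) were called higher by edgeR's quasi-likelihood test. That member was Spdef, at 5.49 ± 0.75 on the log2 scale (adjusted p = 0.0173). Its summed level in cycling progenitors was 33.4 times that of stem-like cells in rat 1 (25.8 to 43.6) and 58.7 times in rat 2 (19.5 to 290). Atoh1 (26.8 and 12.0 times), Creb3l1 (11.0 and 11.4), Creb3l4 (6.74 and 13.4) and Foxa3 (6.30 and 8.62) also had counting intervals above 1 in both rats. So did Xbp1 (1.69 and 2.19), while Gfi1 (29.0 and 2.58) had an interval of 0.436 to 17.6 in rat 2. In simulated counts only 14 of 100 genes changed by 3 on the log2 scale were recovered here.

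The other members were at 4.00 ± 0.89 for Atoh1 (adjusted p = 0.107, edgeR quasi-likelihood), 3.31 ± 0.72 for Creb3l4 (0.0894), 3.59 ± 0.92 for Creb3l1 (0.173) and 2.99 ± 0.80 for Foxa3 (0.226). With the rat as a replicate block 5 members were higher, among 119 genes called in either direction, and the adjusted p was 0.00493 for Atoh1, 0.00724 for Creb3l4, 0.0114 for Creb3l1, 0.0148 for Foxa3 and 0.000308 for Spdef. Gfi1 was at 3.15 and Xbp1 at 0.90, and neither passed in either fit. The stem-like cells of rat 2, only 34, carried goblet transcripts, with Tff3 at 1160 CPM and Zg16 at 1429 CPM against 516 and 251 CPM in rat 1. They also carried immune transcripts, with the 5 immune genes at 1054 CPM in sum against 269.98 CPM in stem-like cells of rat 1 and 64.3 CPM in cycling progenitors of rat 2, led by Ccl5 at 636 CPM and Cd3g at 321 CPM. Over the 4 immune genes tested the median was -3.25 in this comparison and 0 were called. The part of these transcripts in the result was not tested.

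Inside the goblet lineage no member passed, and how often the test would recover a true difference there was not measured. Between non-cycling goblet cells and cycling progenitors, 0 of 7 members tested were called by edgeR's quasi-likelihood test, where 2.93% of all genes tested were called higher and 1.24% lower (4.16% in either direction). Spdef came closest, at 1.34 ± 0.60 (unadjusted p = 0.0449, adjusted p = 0.191), and DESeq2 also called 0 members. With the 3 clusters of the lineage used as the classes instead of the thresholds, Spdef passed at 1.67 (adjusted p = 0.0261, edgeR quasi-likelihood). The direction differed between the rats for Creb3l1, at 0.61 in rat 1 and -1.30 in rat 2, and for Gfi1, at 0.22 and -0.76. For Atoh1, Foxa3, Creb3l4 and Xbp1 in rat 2 the direction depended on the scale. For Atoh1 the TMM-scaled log2 value was 0.84, higher in non-cycling cells, while the plain CPM ratio was 0.831 (0.681 to 1.02). Outside the goblet markers its levels were 498 CPM in non-cycling and 406 CPM in cycling cells. Foxa3 had a TMM-scaled value of 0.74, a plain ratio of 0.775 (0.618 to 0.979) and 367 against 321 CPM outside the markers. Creb3l4 had 0.96, 0.902 (0.701 to 1.17) and 331 against 249 CPM. Xbp1 had 0.82, 0.821 (0.476 to 1.49) and 67.5 against 55.7 CPM. The cause was not tested.

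Between Paneth-transcript cells and non-cycling goblet cells, 0 of 7 members and 0 genes in all (0%) were called by edgeR's quasi-likelihood test, with 1097 genes at an unadjusted p under 0.05, none of them members. DESeq2 called 184 genes and the fit with the rat as a replicate block 299, with 0 members in either. The fitted values ran from -0.42 for Spdef to 1.34 for Gfi1. In rat 2 the direction depended on the scale. On plain CPM the Paneth-transcript cells were above non-cycling goblet cells, by ratios of 1.31 for Spdef (1.12 to 1.54), 1.55 for Atoh1 (1.32 to 1.82), 1.65 for Foxa3 (1.37 to 1.97) and 1.77 for Creb3l4 (1.47 to 2.14), whereas the TMM-scaled log2 values were -0.61, -0.37, -0.28 and -0.17. Creb3l1 was at 1.03 ± 0.82, which combined -0.0027 in rat 1 and 1.63 in rat 2.

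Shares of cells with a UMI were compared after each cell was thinned to 5000 UMIs, because median depth was 12148 and 15152 UMIs in the goblet lineage and 12104.5 and 24454.5 UMIs in enterocyte-like cells. Atoh1 was found in 62.0% and 71.9% of goblet-lineage cells, Spdef in 60.9% and 81.7%, Foxa3 in 50.8% and 66.7%, Creb3l4 in 53.3% and 65.4% and Creb3l1 in 45.9% and 47.1%. Of the classes in rat 2, Creb3l1 was found in 13 of 13 cycling progenitors, 25 of 27 Paneth-transcript cells and 34 of 113 non-cycling goblet cells. In enterocyte-like cells each of these 5 was found in at most 1.85% of cells. Without thinning, Atoh1 was found in 89.1% and 83.7% of goblet-lineage cells and Spdef in 89.6% and 96.7%, against at most 1.91% of enterocyte-like cells for either. Xbp1 was found in 22.4% and 20.3% of thinned goblet-lineage cells and in 8.67% and 5.64% of enterocyte-like cells. Gfi1 (3.28% and 5.23%) and Bhlha15 (0.546% and 1.96%) were seen in few cells, near the level of 1 UMI. Exact intervals and limits cover counting error only.

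The members were also counted in each thinned cell. Goblet-lineage cells held a mean of 2.99 of the 8 members in rat 1 and 3.60 in rat 2, and 37.7% and 51.0% of the cells held 4 or more. Paneth-transcript cells had the highest mean in both rats, 3.36 and 5.00, beside 3.26 and 3.19 in non-cycling goblet cells and 2.42 and 4.31 in cycling progenitors. EEC-like cells held 0.333 and 0.545 members, and enterocyte-like cells 0.140 and 0.0746. No enterocyte-like cell held 4 or more. For Atoh1 with Spdef, the count of cells holding both was near the product of the separate shares within each class. They were found in the same cell in 33 cycling, 43 non-cycling and 75 Paneth-transcript cells of rat 1, where that product gives 31.0, 40.6 and 70.4 cells. In rat 2 the counts were 8, 61 and 24 cells, beside 8.46, 58.3 and 24.1.

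**Figure D3:**
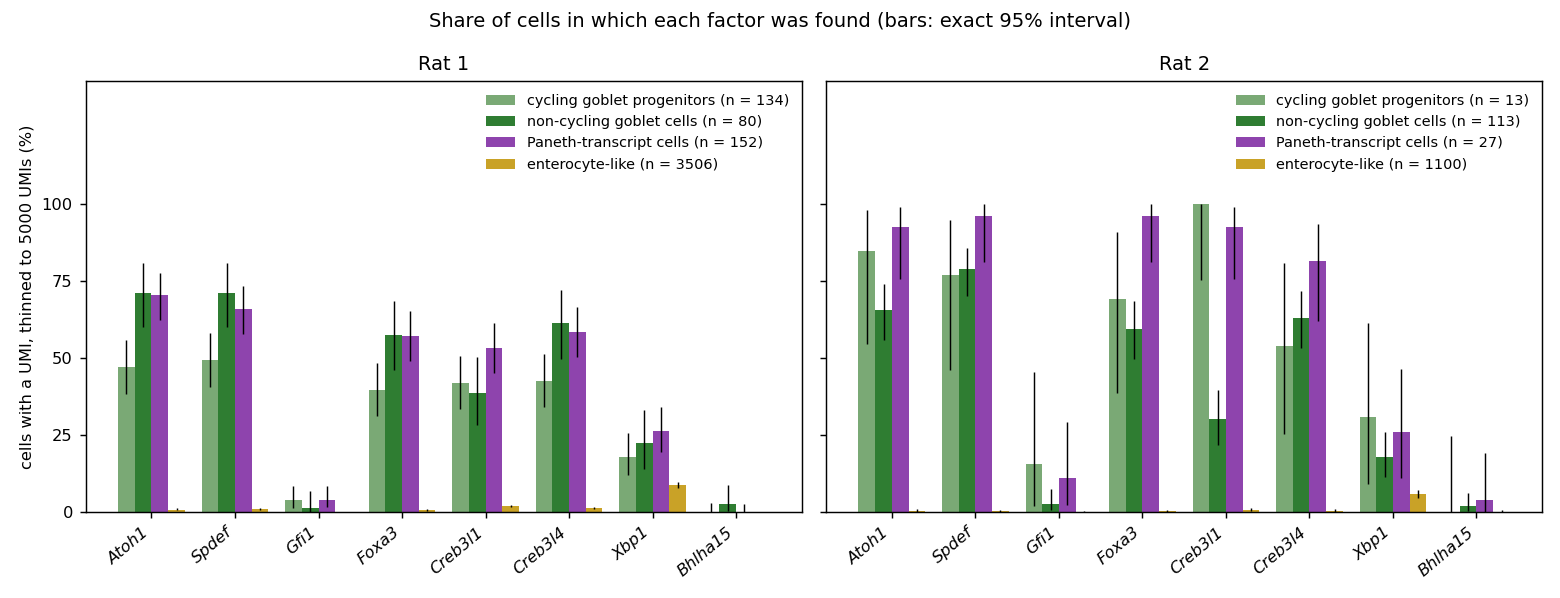
Percentage of cells with at least 1 UMI of each factor after thinning to 5000 UMIs, by rat, in the 3 goblet classes and in enterocyte-like cells, with lines for exact 95% intervals. Creb3l1 in rat 2 was found in 100% of cycling progenitors and 30.1% of non-cycling goblet cells, and Xbp1 alone among the 8 was found in over 5% of enterocyte-like cells of both rats.

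The goblet-lineage cells were also grouped by the share of goblet-marker UMIs in each cell, and levels were taken per 1000000 UMIs outside those markers, so that mucus transcripts did not dilute them. In rat 1, Atoh1 stood at 116, 259, 515 and 687 CPM in cells with 0 to 5%, 5 to 15%, 15 to 30% and over 30% goblet-marker UMIs (127, 140, 61 and 38 cells), and Spdef at 104, 231, 443 and 467 CPM. In rat 2, Atoh1 was at 524, 539 and 479 CPM and Spdef at 451, 564 and 555 CPM in the 3 upper groups (32, 19 and 98 cells). The lowest group of rat 2 held only 4 cells, with Atoh1 at 332 CPM (217 to 487) and Spdef at 192 CPM (107 to 316). Both genes were thus higher in marker-rich cells of rat 1, while in rat 2 the lowest group was below the others and the 3 upper groups lay close together. The lowest group of rat 1 was 67.7% cycling cells, so marker share and cell cycle moved together there.

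Creb3l1 departed from that pattern. It stood at 89.1, 158, 259 and 167 CPM across the 4 groups of rat 1 and at 533, 332 and 87.6 CPM in the 3 upper groups of rat 2, where the top group had an interval of 68.0 to 111. In both rats the most marker-rich cells were below the group before them, though the intervals in rat 1 are 112 to 240 and 213 to 311. Foxa3 in the top group was at 340 and 395 CPM and Creb3l4 at 329 and 348 CPM, with no such fall beyond the counting intervals. By cluster the Creb3l1 level was 114 and 48.2 CPM in the Zg16 and Fcgbp cluster, 192 and 424 CPM in a cluster led by Itln1 and Clca1, and 97.7 and 468 CPM in the cycling cluster.

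Bhlha15 had 0 UMIs in the most marker-rich cells of both rats, which allows up to 17.3 CPM in rat 1 and 3.86 CPM in rat 2. In the group of rat 2 with 15 to 30% goblet-marker UMIs it had 9 UMIs in 5 of 19 cells, or 37.3 CPM (17.1 to 70.9), and in the same group of rat 1 it had 3 UMIs, or 6.99 CPM (1.44 to 20.4). These are descriptions of few counts with no test.

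**Figure D4:**
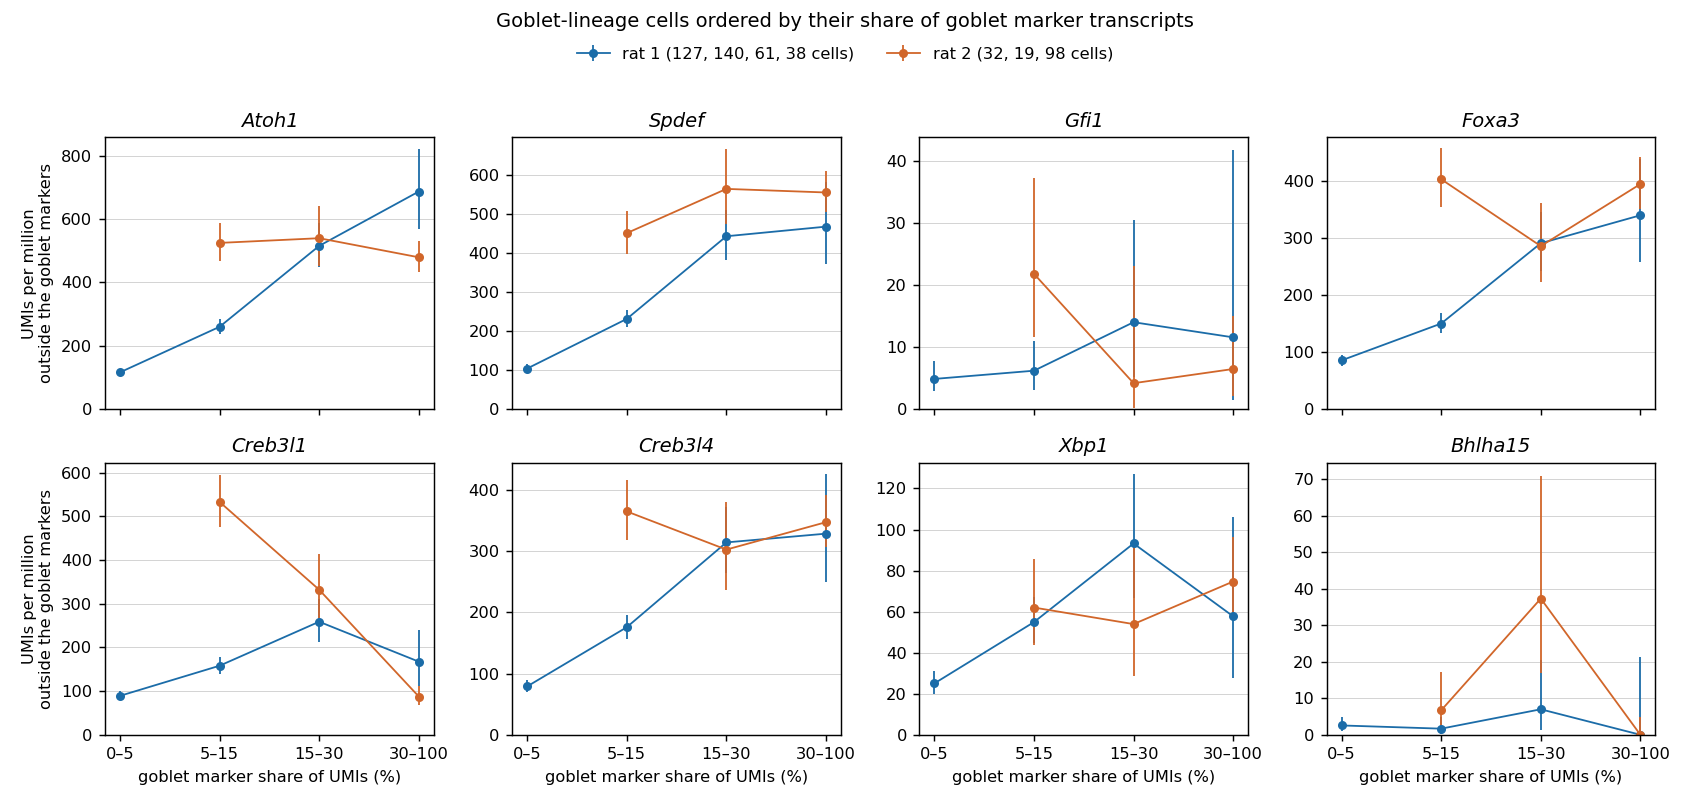
Level of each factor per 1000000 UMIs outside the goblet markers, against the share of goblet-marker UMIs per cell, with 1 line per rat and bars for exact 95% counting intervals (the group of 4 cells in rat 2 is not drawn). Creb3l1 in rat 2 falls to 87.6 CPM in the most marker-rich cells, and Atoh1 in rat 1 goes from 116 to 687 CPM.

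Relatives of the members were read as a list of 15 genes, 13 of them tested. Against enterocyte-like cells 3 were higher and 3 lower by edgeR's quasi-likelihood test, with a list median of 0.31, beside 16.5% and 16.6% of all genes tested. Foxa2, a second forkhead factor, was higher (adjusted p = 0.000404), at 0.0851 and 0 CPM in enterocyte-like cells, 19.3 and 82.7 CPM in cycling progenitors and 11.5 and 26.6 CPM in non-cycling goblet cells. Sox9, a factor of crypt and Paneth cells, was higher by 4.54 ± 0.65 (adjusted p = 0.000143, edgeR quasi-likelihood). Of the Creb3 family, Creb3l3, a regulator of lipid metabolism in liver and intestine, fell by 6.54 on the log2 scale (adjusted p = 2.27e-06) and Creb3l2 fell by 2.01 (adjusted p = 0.00331), while Creb3l1 and Creb3l4 were higher, as given above. Against other secretory cells 0 of 13 passed, beside 9.17% of all genes tested in either direction. Between non-cycling and cycling goblet cells, Creb3l2 was higher by 2.95 ± 0.70 (adjusted p = 0.0358) and Sox9 fell by 2.59 with an SE of 0.67 (adjusted p = 0.0453, edgeR quasi-likelihood).

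Among 24 genes of the unfolded protein response and the ER secretory pathway, 7 were higher and 2 lower in the goblet lineage than in enterocyte-like cells. The list median was 0.52 (all genes 0.04), and 16.5% of all genes tested were called higher and 16.6% lower. Against other secretory cells 13 were higher and 0 lower (list median 1.22, all genes 0.23), where 6.39% of all genes tested were called higher. Ern2, the intestinal Ire1 paralog that goblet cells use, was higher by 6.12 ± 0.79 against enterocyte-like cells (adjusted p = 0.000165) and also passed against other secretory cells (adjusted p = 0.0018, edgeR quasi-likelihood), where it had 0 UMIs in both rats, so that no fold is given. Sdf2l1, an ER chaperone partner, was at 3.65 and 2.73, Pdia6, a disulfide isomerase, at 2.44 and 3.34, and Creld2 at 2.24 and 2.52 in these comparisons. Ern1, the ubiquitous Ire1, was at 0.49 and -0.17 and passed in neither. None of the 24 passed in the comparisons inside the lineage or against stem-like cells.

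Vesicle genes tied to Bhlha15 in exocrine cells were higher against enterocyte-like cells in 6 of 6 tested (list median 5.54) and against other secretory cells in 4 of 6 (2.19). Of all genes tested, 16.5% and 6.39% were called higher in these comparisons. Rab3d, a secretory granule GTPase, was higher by 5.15 ± 0.54 (adjusted p = 1.39e-05) and 1.63 ± 0.32 (adjusted p = 0.00733), and Rab27b by 6.23 ± 0.78 (adjusted p = 4.53e-05) and 1.82 ± 0.53 (adjusted p = 0.0457, edgeR quasi-likelihood). These genes were thus high in cells in which Bhlha15 itself had 15 and 14 UMIs. Mucus genes tied to Spdef and Foxa3 were higher in 12 of 14 tested in both comparisons (list medians 4.00 and 3.04), beside the same shares of all genes. Among them was Tpsg1, at 7.06 and 4.75. Rep15 passed in both, at 255 and 78.4 CPM in non-cycling goblet cells against 1.15 and 0.116 CPM in enterocyte-like cells, and its only level above 0 in other secretory cells was 0.968 CPM in tuft-like cells of rat 2. Between non-cycling and cycling goblet cells 3 of 14 were higher, beside 2.93% of all genes tested. They were Capn9 (77.4 and 139 CPM against 5.45 and 3.06 CPM, adjusted p = 0.0145), Tpsg1 (3.74 ± 0.80, adjusted p = 0.0298) and Bcas1 (3.63 ± 0.60, adjusted p = 0.0145, edgeR quasi-likelihood). Against stem-like cells, or between Paneth-transcript and non-cycling cells, 0 of 14 were higher.

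Markers of other cells moved in some of the same comparisons. The 5 enterocyte transcripts were all lower in the goblet lineage than in enterocyte-like cells (list median -6.42). Alpi, Apoa1, Apoa4 and Fabp1 were also the markers that named enterocyte-like clusters and kept goblet clusters apart, so for them this followed from the naming. Fabp1 was lower in the goblet lineage than in other secretory cells (-2.37). Fabp2 was higher in non-cycling than in cycling goblet cells (4.91, adjusted p = 0.0145, edgeR quasi-likelihood). The 5 enterocyte transcripts gave 0.290% and 0.451% of UMIs in non-cycling goblet cells and 0.10% and 0.0750% in cycling progenitors. The erythroid gene Alas2 was higher in the goblet lineage than in enterocyte-like cells (3.47) and in non-cycling than in cycling goblet cells (3.69). Of 4 immune genes tested 1, Cd3g, was higher in the goblet lineage than in enterocyte-like cells (2.66), beside 16.5% of all genes tested. Blood transcripts gave 0.133% and 0.120% of UMIs in non-cycling goblet cells and 0.0107% and 0.00276% in cycling progenitors. Tuft-like cells held more, 0.734% and 1.15%, and against other secretory cells 0 of 3 blood genes were called, with a median of -1.92. Their part in the results above was not tested.

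Over the 16 sums of class and rat, log2 CPM of Atoh1 had a Pearson correlation of 0.93 with Spdef, and Foxa3 one of 0.91 with Creb3l1. The genes most like each member by this measure were Ern2, Noxa1 and Sidt1 for Atoh1 (0.96, 0.95 and 0.94), Ern2, Scnn1a and Mcemp1 for Spdef (0.973, 0.968 and 0.959) and Scnn1a, Trim46 and Tac4 for Gfi1 (0.949, 0.923 and 0.919). For Foxa3 they were Galnt5, Vill and Rnf39 (0.961, 0.951 and 0.944), for Creb3l1 Ica1, Rab15 and Asph (0.931, 0.928 and 0.923), for Creb3l4 Tram1, Fcgbp and Sidt1 (0.953, 0.943 and 0.932) and for Xbp1 Rpn2, Proser1 and Ralgapa2 (0.938, 0.934 and 0.931). The sums share 2 libraries and differ in depth, and these correlations describe the sums only.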

How the data were processed

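Epithelium of the proximal jejunum of 2 rats was profiled by 3′ droplet sequencing. The authors deposited UMI counts per gene and barcode, aligned to Rnor6 with Cell Ranger, and the headers name version 3.1.0 (rat 1) and version 5.0.1 (rat 2), which cannot be told apart from the animal. Other columns of per-sample values in the tables numbered 0.

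Cells with over 5000 UMIs and at most 40% mitochondrial UMIs were clustered in 3 rounds with Seurat 5.3.0 (R 4.3.3, 2000 variable genes, 20 principal components, resolution 0.3 and then 0.5), with 908 genes, the 8 members among them, kept out of the variable genes. Clusters with Ptprc in over 25% of cells, or a mean hemoglobin level more than 1 above the median, were removed. Marker levels that name a cluster and the thresholds that split the goblet lineage were set after clusters were seen. Scrublet (scanpy 1.11.5) called 119 cells of rat 1 and 8 of rat 2 (0.347%) as doublets, which stayed in, and the call in rat 2 is too low to rely on.

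UMIs were summed by rat and class into 16 sums and tested in 1 fit with edgeR 4.0.16 (quasi-likelihood, TMM, filterByExpr, Benjamini-Hochberg threshold 0.05 over 9054 genes). CPM intervals are exact Poisson or Clopper-Pearson at 95% and cover counting error only. Sums of the same number come from the same animal, and their deviations correlated at a median of 0.23 over 28 pairs of classes (lowest 0.09), so the fit with the rat as a block is given where it changes a call. In simulated counts over 8355 genes, 67 of 100 genes changed by 3 on the log2 scale were recovered against enterocyte-like cells (9.09% false calls), 75 against other secretory cells (4.76%) and 14 against stem-like cells (12.5%). Of 100 genes changed by 1 on the log2 scale, 3, 5 and 0 were recovered in the same comparisons. No change was simulated between the goblet classes, so recovery inside the lineage was not measured.

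The text names all 8 members, at most 4 called genes per list and comparison with the largest fold in 1 direction in both rats, and the 3 genes most correlated with each member. Ern1 and the Paneth, Tff3 and Zg16 levels were added after their values were seen. The members and lists were chosen with earlier results of these data known. Alternatives included DESeq2 1.42.0, other filters, integration, resolution and thresholds. Promoter windows came from RefSeq (GRCr8), and no protein sequence was used here.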

Additional observations from a re-analysis of the deposited data

Results flagged for a closer look

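Signal of the members also appeared in cells outside the classes compared. A group of 101 cells of rat 1 and 33 of rat 2 carried both goblet and enterocyte markers and stayed unnamed, and Scrublet called 17 and 1 of them as doublets. There Atoh1 stood at 63.3 and 71.5 CPM, Spdef at 56.5 and 65.1 CPM, Foxa3 at 43.2 and 56.6 CPM, Creb3l1 at 35.1 and 37.4 CPM and Creb3l4 at 45.8 and 58.7 CPM, in rat 1 and rat 2, above the enterocyte-like cells.

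The cells of clusters removed for Ptprc or hemoglobin, 284 of rat 1 and 633 of rat 2, held Gfi1 at 1.66 CPM and 11 CPM. The latter came from 60 UMIs in 51 cells. Not all removed cells were shown to be non-epithelial, as those of rat 1 had 6.32% enterocyte-marker UMIs and Scrublet called 71 of them as doublets. Gfi1 is also known from blood cells, and the level of 11 CPM in rat 2 was within the range of its goblet classes, 3.24 to 23.4 CPM.

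In rat 1, 5 cells with at least 200 defensin UMIs per 5000 fell outside the goblet lineage, in stem-like or enterocyte-like clusters. Atoh1 was at 83.1 CPM, Spdef at 23.7 CPM, Foxa3 at 29.7 CPM, Creb3l4 at 41.5 CPM and Bhlha15 at 35.6 CPM in these cells, against 2.34 CPM of Bhlha15 in the goblet lineage of that rat. With the defensin-high cells of the goblet lineage they made 7 cells of rat 1. Over these, Bhlha15 had 6 UMIs in 4 cells (29.6 CPM, exact counting interval 10.9 to 64.5) and Creb3l1 had 1 UMI. Cells of the removed clusters are not counted here. Those of rat 1 held 19172 Defa24 UMIs in 79 cells and 2 UMIs of Bhlha15. The single such cell of rat 2 had 0 UMIs of Bhlha15 and 15 of Creb3l1. No test was run on these cells.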

How the results depend on the processing

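With 2 rats the test has few degrees of freedom, and counts of called genes moved with the processing more than the members did. Against enterocyte-like cells the same 6 members were called under every alternative in which they were tested, and Xbp1 under 0 of 18. With 1 rat no residual degrees of freedom remain, so counts without either rat could not be computed. Direction splits moved by over 10 points with DESeq2, to 1969 higher and 1285 lower against enterocyte-like cells (1495 and 1500 in edgeR with TMM), and to 590 and 576 against other secretory cells (579 and 251), where RLE factors gave 435 and 323. Against enterocyte-like cells the split was also 1547 and 2520 with no low-count filter and 896 and 1642 with the 3 clusters as classes. Non-cycling against cycling goblet cells split into 265 and 112 as reported, 65 and 5 and 88 and 21 with the cycling and the Paneth threshold doubled, 874 and 753 with the replicate block and 1238 and 1532 with the clusters, and cycling progenitors against stem-like cells into 127 and 50 with no filter (10 and 0 as reported). RLE factors moved the median of all genes against enterocyte-like cells from 0.04 to 0.19.

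Genes called against other secretory cells numbered 1531 with no low-count filter, 1570 with the replicate block and 1806 without integration (830 as reported). Non-cycling against cycling goblet cells gave 377 as reported, 915 with DESeq2, 1216 with no filter, 1627 with the replicate block, 566 at 20% mitochondrial UMIs, 910 without integration, 70 and 109 with the cycling and the Paneth threshold doubled, 967 with the Paneth threshold halved, 2770 with the 3 clusters as classes (1 member higher) and 183 without the epithelial filter on stem-like cells. Paneth-transcript against non-cycling cells gave 184, 444, 299, 38 and 974 with DESeq2, no filter, the block, no integration and the clusters. Cycling progenitors against stem-like cells gave 104, 177, 119 and 81 with the first 4 of these (5, 5, 5 and 6 members higher), 54 with the clusters (3 members), 21 without the epithelial filter (2 members), 20 with the limit on genes per cell, 30 at 20% mitochondrial UMIs, 22 with the cycling threshold halved and 35 with a gate on goblet-marker UMIs in place of clusters. Apart from the calls given with each result, the replicate block changed the call of no member.

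No reversed value passed the test. For Paneth-transcript against non-cycling cells, the gate turned Atoh1 to 0.011, Foxa3 to 0.045, Creb3l4 to 0.15 and Xbp1 to 0.077, and Xbp1 was 0.0022 with the block and 0.043 without integration. Gfi1 turned to 0.35 with the Paneth threshold halved (non-cycling against cycling) and to -0.72 without the epithelial filter (cycling against stem-like). Without either rat in turn, non-cycling against cycling values ran from -0.76 to 0.22 for Gfi1 and from -1.30 to 0.61 for Creb3l1, and Paneth-transcript against non-cycling values from -0.61 to 0.0029 for Spdef, -0.0027 to 1.63 for Creb3l1, -0.17 to 0.0085 for Creb3l4 and -0.47 to 0.49 for Xbp1. Without thinning, mean shares over the rats were 86.4% for Atoh1, 93.2% for Spdef, 10.7% for Gfi1, 86.0% for Foxa3, 70.2% for Creb3l1 (45.2% thinned with another seed), 84.4% for Creb3l4, 43.5% for Xbp1 and 4.99% for Bhlha15. The causes were not tested. The alternatives that used the clusters, left out defensin-high cells or goblet markers, or dropped the epithelial filter were chosen after seeing the data.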
